A study of Mus musculus with 2 samples.

Results

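Dual specificity phosphatases, Sproutys and Spreds restrain MAP kinase signalling, and the mRNA levels of 10 listed genes of these families were compared between day 3 and day 0 of induced adipogenesis. The genes were Dusp1, Dusp4, Dusp5, Dusp6, Dusp10, Spry1, Spry2, Spry4, Spred1 and Spred2, each taken by the gene symbol that the platform annotation gives its probes. A probe was named for 9 of the 10, with 12 probes in all, out of 16637 named genes on the array. Dusp5 had no named probe and has no value here.

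The cells were mouse embryonic fibroblasts (connective tissue cells grown from embryos) labelled as knockout for Xbp1, which encodes a transcription factor that responds to unfolded protein. On day 3 they had been through adipogenic induction for 72 h with insulin at 10 µg/ml, IBMX at 0.25 mM, and troglitazone and DXM at 5 µM each. IBMX blocks the breakdown of cAMP and troglitazone activates the fat cell receptor PPARγ. On day 0 the cells had reached confluence, the point at which the drugs were given. The labels give both days as Xbp1 knockout, and no cells labelled as Xbp1-intact were analysed here. The labels do not say how many clones or embryos the culture came from. Each day was 1 single-colour array (Cy5), so there were no replicates, no test was possible and no p-value is given.

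Growth factor receptors signal through RAS to the kinase ERK, while stress and cytokines act mainly through the kinases JNK and p38. Dual specificity phosphatases of the MAP kinase phosphatase group remove the activating phosphates from ERK, JNK or p38, and many are themselves transcribed when these kinases are active, so they form a negative feedback loop. Sproutys and Spreds are membrane-associated inhibitors that act upstream, between the receptor and RAF, and Spreds bring the RAS inactivator neurofibromin to the membrane. ERK activity is known to be needed early in adipogenesis and to oppose later fat cell differentiation, in part because ERK phosphorylates PPARγ. Dusp1 is also a known target of cAMP and glucocorticoid signalling.

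The promoters of 4 of the measured genes are shown because Dusp1 and Spred2 had the highest differences toward day 3 among these genes, and Dusp6 and Spry2 were lower on day 3 by their only probes. Each sequence is the 250 bases upstream of the RefSeq gene start in build GRCm38.p6, read 5′ to 3′ on the gene's strand. Capitals mark TGACG on either strand, the core that the cAMP response element TGACGTCA holds on each strand.
Dusp1 (chr17:26508473-26508722, minus strand): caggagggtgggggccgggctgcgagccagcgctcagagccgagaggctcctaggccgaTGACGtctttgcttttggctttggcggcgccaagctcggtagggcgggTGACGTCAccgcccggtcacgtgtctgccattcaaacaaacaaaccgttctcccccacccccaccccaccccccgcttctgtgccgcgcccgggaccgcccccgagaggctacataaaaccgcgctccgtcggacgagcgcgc
Spred2 (chr11:19924192-19924441, plus strand): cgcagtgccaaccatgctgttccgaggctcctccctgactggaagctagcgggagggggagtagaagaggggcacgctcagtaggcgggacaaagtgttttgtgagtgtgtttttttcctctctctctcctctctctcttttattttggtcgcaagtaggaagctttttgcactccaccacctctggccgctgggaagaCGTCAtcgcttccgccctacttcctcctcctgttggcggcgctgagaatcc
Dusp6 (chr10:99262981-99263230, plus strand): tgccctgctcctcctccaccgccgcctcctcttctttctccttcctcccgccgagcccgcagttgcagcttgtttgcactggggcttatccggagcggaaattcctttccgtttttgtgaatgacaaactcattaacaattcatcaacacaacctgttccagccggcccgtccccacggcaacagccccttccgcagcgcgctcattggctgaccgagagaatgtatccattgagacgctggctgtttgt
Spry2 (chr14:105896820-105897069, minus strand): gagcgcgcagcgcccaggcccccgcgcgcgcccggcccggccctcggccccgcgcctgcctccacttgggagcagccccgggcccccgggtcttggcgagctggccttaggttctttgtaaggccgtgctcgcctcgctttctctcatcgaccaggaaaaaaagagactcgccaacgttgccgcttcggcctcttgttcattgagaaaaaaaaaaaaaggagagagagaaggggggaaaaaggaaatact
The Dusp1 window held the whole element TGACGTCA, beginning 143 bases before the start, and 1 further TGACG beginning 191 bases before it. The Spred2 window held 1 TGACG match, on the opposite strand, beginning 51 bases before the start. The Dusp6 and Spry2 windows held neither, and neither did those of Dusp10, Spry1 and Spred1, while the window of the unmeasured Dusp5 held 1 TGACG. Of 32851 mouse promoter windows of the same length, 1.55% held TGACGTCA and 17.8% held TGACG, with both strands searched and matches inside the longer element counted. None of these windows held CCGGAA, a longer form of the ETS core GGAA (12.03% of all windows), or the hexamer AGAACA of glucocorticoid response elements (16.1%). The shorter GGAA, which does occur in windows shown above, was not counted. These matches describe letters in the windows and say nothing about binding. The 4 genes shown were picked by their measured differences, and Dusp4 and Spry4 had no window. A link between matches and differences was therefore not tested.

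Scale and depth were facts of the whole arrays. Over 29922 gene probes the raw intensity had a median of 166 on day 3 and 78 on day 0, while the median empty spot read 0 on either day. The arrays were therefore quantile normalized over all gene probes, and values below are normalized intensities in arbitrary units unless called raw. A gene was called detected where its brightest probe read more than 122, which was the median gene probe, on day 3 or day 0, as was the case for 10656 genes. All 9 measured feedback genes were detected, 8 of them on both days, and Spry1 was above the threshold on day 0 only. The error given is the SD of a difference expected from repeated control spots, pooled over features, and it covers scatter between spots but leaves out variation between cultures, extractions and hybridizations. The probe of Xbp1 read 13561 on day 3 and 20936 on day 0, and since its position relative to the deleted part was not analysed here it does not check the knockout label. Fibroblast markers were detected in 8 of 8 cases, with a summed signal of 145084 on day 3 and 142709 on day 0. These sums cover opposite differences, with 3 markers higher on day 3 and 5 lower. Col3a1 read 55557 on day 3 and 35066.5 on day 0, and Lum read 662.5 and 218. Vim read 44635.5 on day 3 and 65473.5 on day 0, Col1a1 read 5849.5 and 12227.5, and Fap read 27 and 124. Sums for this and the other cell types cover all markers with a probe, detected or not. Fat cell markers were detected in 1 of 8 cases (Slc2a4, 173 on day 3 and 135.5 on day 0), with sums of 483.5 and 223.5. Below the threshold, Adipoq read 120.5 on day 3 and 12 on day 0, and Fabp4 read 59.5 and 10.5. Cidec and Plin1 were also higher on day 3 below the threshold, while Cfd was lower, with 7.5 and 15.5. Leukocyte markers were detected in 5 of 8 cases and summed to 43678 on day 3 and 17409 on day 0. Nearly all of this sum came from Cd14 and Itgam, while the defining markers Ptprc and Adgre1 read 10.5 or less on either day. Cd14, Itgam and Cd68 (268 on day 3, 198.5 on day 0) were higher on day 3. The other detected markers went the opposite way, Csf1r with 51.5 on day 3 and 269.5 on day 0, and Aif1 with 78.5 and 131.5. Lyz2, which did not count as detected, read 13.5 on day 3 and 66 on day 0. Epithelial markers were detected in 3 of 8 cases (Krt14, Cldn4 and Krt18). The sums over all 8 were 1105 on day 3 and 1101 on day 0, and they include Krt19, not detected, with 31 on day 3 and 106.5 on day 0. Of the 3 detected markers Krt14 was higher on day 3, with 387.5 against 150.5, and the undetected Epcam read 2 or less on either day. Endothelial markers were detected in 3 of the 7 with a probe and summed to 866.5 on day 3 and 696.5 on day 0. Pecam1 read 568.5 on day 3 and 189.5 on day 0, Kdr read 17.5 and 168, and Cdh5 stayed below the threshold. The part of these markers in the results below was not tested. In bulk RNA, a change in the share of cells that express a gene and a change in RNA per cell cannot be told apart.

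The 9 measured genes lay on both sides of 0. Spred2 was the only gene at least 2-fold higher on day 3, and none was at least 2-fold lower. Across all detected genes 12.8% were at least 2-fold higher and 10.3% at least 2-fold lower, so 1 of 9 and 0 of 9 are near what the arrays show in general. With the threshold taken as the lowest possible signal, 1 and 0 of the 9 genes were called, against 10.2% and 8.51% of all detected genes. At a threshold of 1.5-fold, 2 genes were higher (Dusp1 and Spred2) and 3 were lower (Dusp4, Dusp6 and Spry2), against 24.1% and 21% of detected genes. Dusp4 enters all counts of this paragraph by its brighter probe, and its other probe was 1.72-fold higher on day 3. The differences ran between -0.92 and 1.64 on the log2 scale, with 4 of 9 above 0, against 51.5% of all detected genes. Their median was -0.35, beside 0.03 for all detected genes. The difference exceeded the pooled repeat-spot SD in 5 of the 9 genes, against 39.0% of all detected genes.

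**Figure D1:**
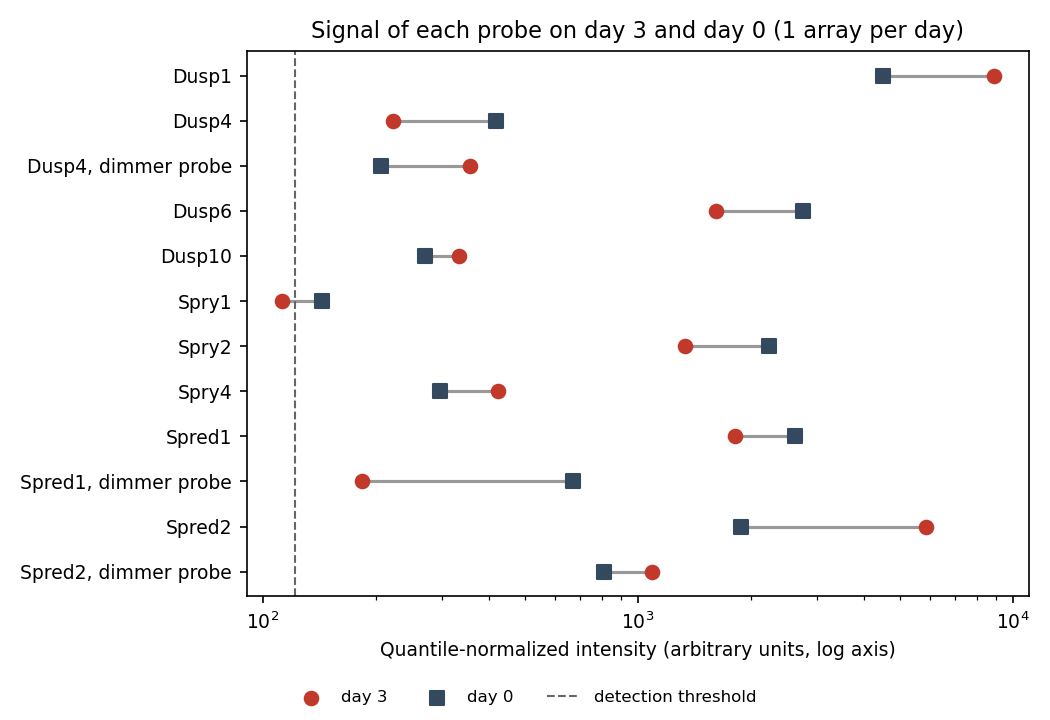
Normalized intensity (log axis) of each of the 12 probes on day 3 (circles) and day 0 (squares), 1 array per day, with the detection threshold of 122 as a dashed line. Points are to be compared within a row. Dusp1 and Spred2 lie to the right on day 3, Dusp6, Spry2 and Spred1 lie to the left, and the probes of Dusp4 go opposite ways.

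Dusp1 encodes the immediate early phosphatase of the nucleus that acts on p38, JNK and ERK. Its probe read 8871 on day 3 and 4512 on day 0. That is 1.97-fold higher, a log2 difference of 0.98 against a spot SD of 0.85, just short of 2-fold. Larger differences toward day 3 were seen in 13.4% of detected genes. The raw intensities were 10102 on day 3 and 3877 on day 0. Dusp1 was higher on day 3 in each of the 10 alternative treatments of the data that altered its value, most of them scalings, between 0.29 under median scaling over all gene probes and 1.38 with no normalization. Dusp1, Dusp6, Dusp10 and the Sproutys had 1 probe each, so none of these alternatives tried another probe, and among all genes with exactly 2 detected probes 33.7% had probes of opposite sign.

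Dusp4 encodes a related nuclear phosphatase that is induced by ERK activity. Its probes disagreed. The brighter probe, mMC005797, read 222 on day 3 and 419 on day 0, a difference of -0.92. The other, mMC002199, read 355.5 on day 3 and 206.5 on day 0, a difference of 0.78. The spot SD was 0.78 for both, and the direction of Dusp4 is therefore not settled by these arrays. The gap of 1.70 between these probes was larger than in most genes: among 1660 genes with exactly 2 detected probes the median gap was 0.58, and 8.86% had a larger one.

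Dusp6 encodes a cytoplasmic phosphatase selective for ERK, and its transcript is widely read as a gauge of ERK output. It gave 1616.5 on day 3 and 2759.25 on day 0, which is 1.71-fold lower (log2 difference -0.77, spot SD 0.57). The raw intensity was also lower, with 1895 on day 3 and 2330 on day 0. That is a raw log2 difference of -0.30, beside a median of 0.67 over all detected genes without normalization. The 10 alternatives that altered its value ranged from -1.39 to -0.30.

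Dusp10 encodes a phosphatase that prefers p38 and JNK. It read 332.5 on day 3 and 271 on day 0. The difference of 0.30 was smaller than the spot SD of 0.78. It stayed above 0 in the 9 alternatives that altered it, but was only 0.03 under median scaling over all gene probes.

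Spry2, a Sprouty that is induced by growth factors and inhibits RAS and RAF activation, read 1332.25 on day 3 and 2236.5 on day 0. It was 1.68-fold lower, with a log2 difference of -0.75 and a spot SD of 0.57. The raw values of 1572 on day 3 and 1868 on day 0 were also in that direction, and the 10 alternatives that altered its value ranged from -1.34 to -0.25. Dusp6 and Spry2 thus had nearly equal differences.

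Spry4, another growth factor-induced Sprouty, went the other way. It read 423.5 on day 3 and 296.5 on day 0, a difference of 0.51 within the spot SD of 0.78. The 10 alternatives that altered it lay between 0.22 and 1.31. Spry1 was dim, with 112.5 on day 3, under the threshold, and 143.5 on day 0. As normalized it was at least 1.18-fold lower, but the difference of -0.35 lay within the spot SD of 0.61. Its sign turned in 5 of the 10 alternatives that altered its value, among them no normalization (0.72).

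Spred1 and Spred2 encode the closely related inhibitors that recruit neurofibromin. Spred2 was higher on day 3 and Spred1 was lower, by both probes of each. Spred2 read 5870.5 on day 3 and 1880.5 on day 0 by its brighter probe, mMR030017, which is 3.12-fold higher (log2 difference 1.64, spot SD 0.57). Only 4.04% of detected genes had a larger difference toward day 3. Its other probe, mMC020465, read 1090.5 on day 3 and 809.5 on day 0, a difference of 0.43 within its spot SD of 0.78. The direction was the same in both probes, but the 2-fold call rested on the brighter one.

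Spred1 read 1808.5 on day 3 and 2618 on day 0 by its brighter probe, mMC019060, a difference of -0.53 just within the spot SD of 0.57. Its other probe, mMR030993, read 183.5 on day 3 and 671 on day 0, which is 3.66-fold lower (log2 difference -1.87, spot SD 0.78). Both probes were lower on day 3, and their gap of 1.34 was exceeded in 16.1% of genes with 2 detected probes. The raw readings of the brighter probe were nearly equal, 2114 on day 3 and 2196 on day 0. Both Spreds kept their direction in the 12 alternatives that altered their values, the other probe among them.

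**Figure D2:**
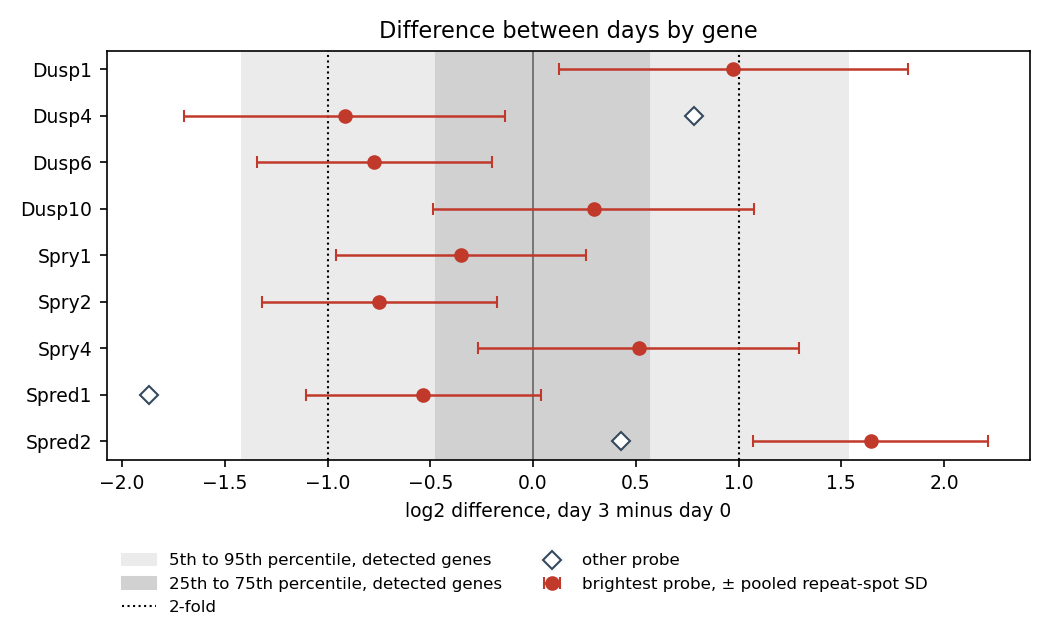
Log2 difference, day 3 minus day 0, of the 9 genes by their brightest probe (circles, bars ± pooled repeat-spot SD) and by the other probe where there is one (diamonds). Shading shows the middle of all 10656 detected genes. Spred2 alone lies past the 2-fold line by its brightest probe, and the diamond of Dusp4 lies across 0 from its circle.

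**Figure D3:**
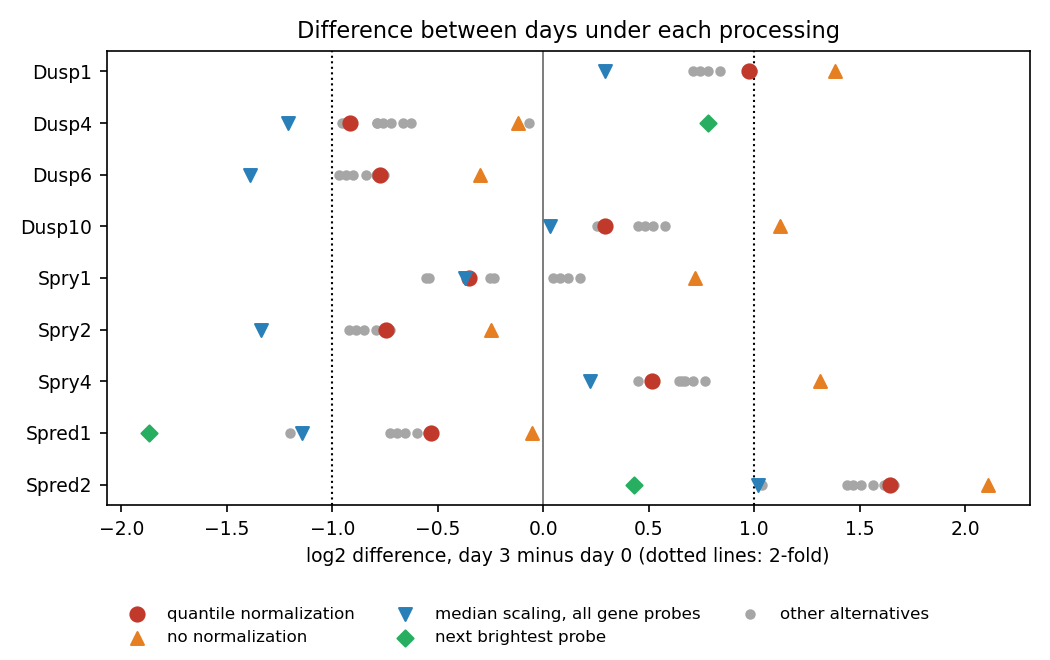
Log2 difference, day 3 minus day 0, of each gene under quantile normalization (red) and under each alternative, with no normalization, median scaling and the next brightest probe marked. Median scaling moves the genes left of no normalization, Spry1 crosses 0, and Dusp4 crosses 0 with its next brightest probe.

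The phosphatases of this list were next set beside the other MAP kinase phosphatases, Dusp2, Dusp7, Dusp8, Dusp9 and Dusp16, which complete the group apart from Dusp5. Of these 5, all detected, 1 was 2-fold higher and 1 was 2-fold lower, beside 12.8% and 10.3% of all detected genes, with a median of 0.46. Dusp2, an inducible phosphatase of the nucleus, read 2230 on day 3 and 493.5 on day 0, 4.52-fold higher. Dusp9, a cytoplasmic phosphatase selective for ERK, read 442 on day 3 and 2249.25 on day 0, 5.09-fold lower. These are larger differences than any of the listed phosphatases had. Dusp7, which is also cytoplasmic and ERK-selective, read 850 on day 3 and 1497.5 on day 0 (-0.82, spot SD 0.57). Dusp16, which prefers JNK and p38, read 2854.25 on day 3 and 1584 on day 0 (0.85, spot SD 0.57), and its other probe gave 0.87.

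Sorted by the textbook classes of the family, an ordering chosen after the values were seen, the cytoplasmic ERK-selective phosphatases Dusp6, Dusp7 and Dusp9 were all lower on day 3. They were lower in every scaling tried, with differences that ranged from -2.87 to -0.28. The class that prefers JNK and p38, Dusp8, Dusp10 and Dusp16, was above 0 in all 3 genes by their brightest probes in every scaling tried, but Dusp8 read -0.28 by its next brightest probe, and the differences of Dusp8 (0.46) and Dusp10 lay within their spot SD of 0.78. In the nuclear class, Dusp1 and Dusp2 were higher and Dusp4 depended on the probe. Classes of 3 genes on 1 pair of arrays are a description of these arrays.

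**Figure D4:**
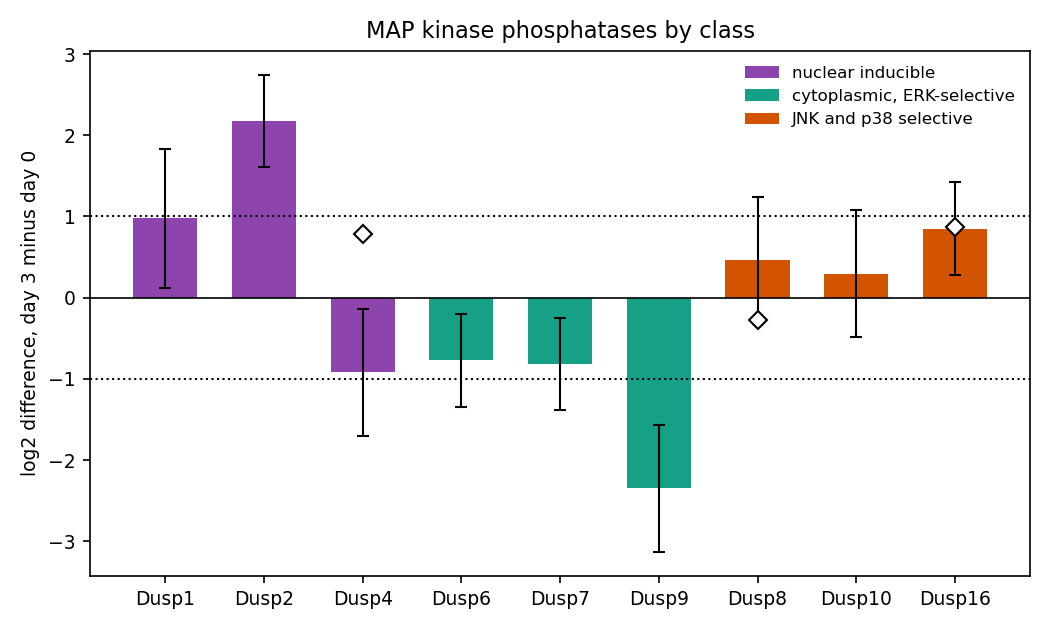
Log2 difference, day 3 minus day 0, of the 9 measured MAP kinase phosphatases by class, as bars for the brightest probe with ± pooled repeat-spot SD and diamonds for other probes. Dusp6, Dusp7 and Dusp9 point down, Dusp1 and Dusp2 point up, and Dusp4 and Dusp8 have probes on both sides of 0.

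The lists that follow are to be read against the same background of 12.8% higher and 10.3% lower. They were chosen with earlier results of these data known, so their shares are descriptions only. Among 9 detected atypical phosphatases, which lack the MAP kinase docking domain, 0 were 2-fold higher and 1 was 2-fold lower (median 0.09). Dusp3 was that gene, with 1162.5 on day 3 and 3770 on day 0 (-1.70), and its other probe was at least 2.05-fold lower. Dusp23 (-0.85), Dusp18 (0.58) and Dusp28 (0.48) were the next largest, and the other probe of Dusp18 gave -1.06.

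Other inhibitors of receptor and RAS signalling also went both ways, with 2 of 12 detected genes 2-fold higher and 2 lower (median 0.16, and 1 lower at the bound). Rasa1, a GTPase-activating protein that switches RAS off, read 2814.5 on day 3 and 9914.5 on day 0 (-1.82), and its other probe gave -3.17. Cblb, a ubiquitin ligase that takes receptors out of action, read 1351.5 on day 3 and 487.5 on day 0 (1.47, and 0.63 by its other probe). The adaptor gene Dok1 differed by 1.26. Dok2 was at least 1.16-fold lower as normalized, but its raw values were 95 on day 3 and 91 on day 0. Nf1, the gene of the neurofibromin that Spreds recruit, gave 224.5 on day 3 and 162 on day 0 by its brightest probe. Nf1 lies outside the rule for named genes and was chosen after its value was seen.

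Upstream, 1 of 11 detected receptor tyrosine kinases was 2-fold lower and 0 were higher (median 0.16). That receptor was Met, the receptor of hepatocyte growth factor, with 414 on day 3 and 2126.5 on day 0 (-2.36). Pdgfra (0.72), Fgfr2 (-0.71, and -1.17 by its other probe) and Insr (0.67) followed. Of 17 detected genes that link receptors to ERK, 1 was 2-fold higher and 2 were lower (median -0.21). The docking protein gene Gab1 read 2759.75 on day 3 and 1177 on day 0 (1.23). The RAS genes Nras (-1.51) and Hras (-1.09, and -1.16 by its other probe) were lower, and the ERK effector kinase gene Rps6ka3 gave -0.90. In the JNK, p38 and ERK5 cascades 0 of 19 detected genes reached 2-fold in either direction (median 0.06), and the largest differences were those of Mapk12 (-0.97), Mapk9 (0.95), Map2k3 (-0.88) and Map3k7 (-0.86).

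Transcripts known to be induced through ERK were 2-fold lower in 5 of 18 detected cases and 2-fold higher in 1, beside 10.3% lower and 12.8% higher over all detected genes. Their median was -0.29. The 4 with the largest differences were lower, namely the transcription factor gene Egr2 (-2.27), the urokinase receptor gene Plaur (-2.19), the cyclin gene Ccnd1 (-2.10) and Myc (-2.01). Egr2 read 590 on day 0 and 122.5 on day 3, close to the threshold of 122, by its only probe (spot SD 0.78). Ccnd1 read 2676.75 on day 3 and 11464.5 on day 0, and its 3 other probes lay between -3.86 and -2.34. The other probe of Myc gave -0.63. The fifth lower gene was Epha2 (-1.65). The higher one was Fosb, with 209 on day 3 and 58 on day 0, below the threshold, so it is not 2-fold at its bound. Epha2 and Fosb were named after their values were seen. Genes of this list that stayed within 2-fold included Fos (-0.20), Junb (-0.01) and Phlda1 (0.08), likewise chosen after their values were seen.

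Of 13 detected transcripts known to be induced by cAMP or glucocorticoid, 9 were 2-fold higher and 0 lower (8 and 0 at the bound), beside the same 12.8% and 10.3% of all detected genes, with a median of 1.87. Nr4a1 (3.24), Rgs2 (2.96) and Pde4b (2.94) had the largest differences, and Nr4a3, below the threshold on day 0, was at least 1.36-fold higher. Fkbp5 (1.85) and Per1 (2.08, below the threshold on day 0) were also higher. The 4 within 2-fold were Sik1 (0.80), Klf9 (0.39), Sgk1 (0.18) and Tsc22d3 (-0.42), and Zbtb16 was not detected. Fkbp5, Per1, Zbtb16 and these 4 were named after their values were seen. The list pools targets of both signals, which were not analysed apart. Dusp1, which is known to respond to both signals, had a difference of 0.98, short of the 2-fold line that those 9 passed as read.

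**Figure D5:**
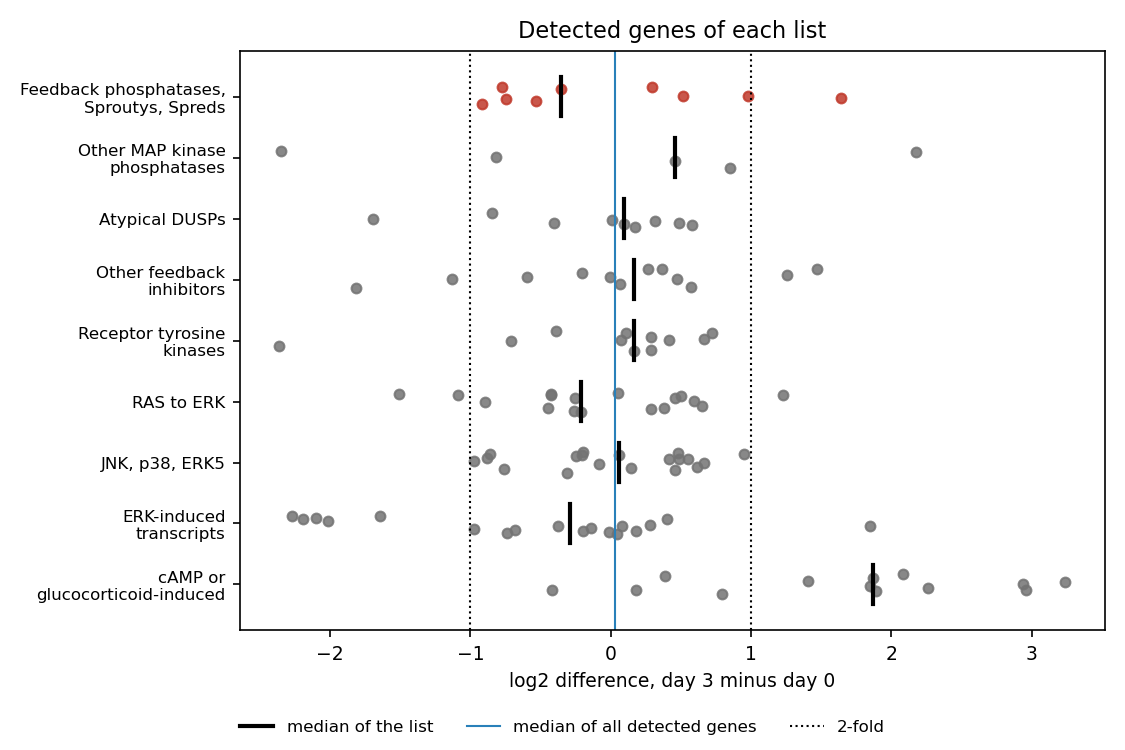
Log2 difference, day 3 minus day 0, of the detected genes of each list (points), with the list median (black bar), the median of all detected genes (blue line) and 2-fold (dotted). The feedback genes (red) lie on both sides of 0, the ERK-induced transcripts have 5 genes past 2-fold on the lower side, and 9 of the 13 cAMP or glucocorticoid-induced transcripts lie past 2-fold on the higher side.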

How the data were processed

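Messenger RNA was measured in 2 samples, grouped by the stage in the labels. Per the labels' protocols, 1 µg of total RNA was amplified and labelled by a service company. The deposited per-sample tables hold a linear intensity for each of 39200 spots, background apparently already subtracted, since empty spots had a median of 0. The scanning and background correction were not given in the sources used. The series table by the authors, with intensity values for 11482 gene probes by an unstated rule and an unstated normalization (column medians 1414 on both days), served as an alternative.

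From the deposited intensities, gene probes were quantile normalized (limma 3.58.1, R 4.3.3), signals under 10 were set to 10, and log2 was taken of the deposited values so treated. Differences are day 3 minus day 0, and the steps were tested on simulated data. The simulation changed few probes, equally in both directions. It therefore cannot show how the normalization behaves where as many genes differ as on these arrays. Of the probes, 21020 had 1 symbol in the platform annotation, 8902 had none and 0 had several. Symbols were updated through a RefSeq table (17558 current, 3410 synonyms, 52 kept). A gene is represented by its brightest probe. Repeat-spot errors came from control features printed as 5 or 6 spots, 278 in all, by bins of log2 signal between 6 and 16. From the lowest bin up, 70, 20, 43 and 153 readings of a feature on 1 array fell in the bins. The pooled SD of 0.78 rests on the bin with 20. Below the detection threshold on 1 day, a fold is a bound against the threshold. No probe of the described families was saturated (65000 or more). RefSeq promoter windows were found for 8 of the 10 genes.

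All 10 genes were described, and up to 4 detected genes with the largest absolute difference were named from each of 8 pathway lists. With 2 arrays a pattern is a single difference, so no gene was named for likeness. The members and lists were chosen with earlier results of these data known. Alternatives were 4 other scalings, the authors' table, an offset of 50, signals set to the threshold, 2 other detection rules, the mean of all probes and a 1.5-fold threshold. The next brightest probe, and scalings with the median of all genes set to 0, were added after seeing the data.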

Additional observations from a re-analysis of the deposited data

How the results depend on the processing

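No paired analysis was possible because each day had 1 array, and for the same reason no replicate could be left out. Of 120 values of single genes under the alternatives, 25 were equal to the reported value, as where a detection rule changed nothing for a gene. Of the 95 that differed, 89 kept the sign, and 72 lay within 1 repeat-spot SD of the reported value, here the smaller SD taken as the median over control features and not the pooled one. The 6 that changed sign were Spry1 in 5 scalings and Dusp4 by its next brightest probe (0.78). The counts depended on the common scale and on the probe. Median scaling over all gene probes put 4 genes at least 2-fold lower, but also moved the median of all detected genes to -0.49, and with that shift removed the count was 0. Higher calls made up 24.3% of all 2-fold calls in that setting, 92.6% with no normalization and 66.7% under median scaling over probes above the threshold on both days, against 55.4% as reported. No normalization put 4 genes at least 2-fold higher, with the median of all detected genes at 0.67, and 1 with that shift removed. The mean of all probes put 1 gene (Spred1) at least 2-fold lower. With the next brightest probe 0 were 2-fold higher and 1 was lower. At 1.5-fold 2 were higher and 3 lower, Dusp4 among the lower by its brighter probe only. The median of the 9 genes, -0.35, was 0.18 under median scaling over probes above the threshold on both days, 0.72 with no normalization and 0.30 with the next brightest probe. With the median of all genes set to 0 it was 0.12 under median scaling over all gene probes, 0.080 over those above the threshold on both days and 0.049 with no normalization. As reported the median is the value of Spry1, which is dim. Of the 9 genes, 7 had a value in the authors' table, with a median of -0.54. Over all detected genes, 1360 were 2-fold higher and 1093 lower as reported, against 829 and 2586 under median scaling over all gene probes, 3940 and 315 with no normalization, and 2237 and 1793 with detection above the 95th percentile of empty spots.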
